A study of Homo sapiens with 4 samples.

Results

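The genes described here are a list of 31 cholesterol and fatty acid synthesis genes and their regulators, chosen by name as genes controlled by the sterol regulatory element-binding proteins (SREBPs). Of these, 29 had a probe set of their own among the 19775 genes on the arrays, and each was read from its probe set with the highest mean log2 intensity over the 4 arrays. The probe sets of the lanosterol demethylase CYP51A1 also named another gene and gave it no value, and FDFT1 was not analysed here. All 29 passed the level minimum, a mean log2 intensity of 5, that left 13794 genes for analysis, and the lowest mean among them was 5.83 (TM7SF2). Genes of the list are called members below, with 16 measured in the sterol branch, 7 in the fatty acid and glycerolipid branch, and 6 regulators and carriers.

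The arrays were HG-U133 Plus 2.0 type, 1 for each combination of 2 cell lines and 2 transfections. SK-MEL-28 and A375 are established human melanoma lines, each with an activating mutation in BRAF. The 4 groups were SK-MEL-28 with siRNA for ZIC5, SK-MEL-28 with negative control siRNA, A375 with siRNA for ZIC5 and A375 with negative control siRNA, all collected 48 h after transfection. ZIC5 is a zinc-finger transcription factor, and the study asked what changes when it is depleted. The labels name no clone, number of siRNAs or repeat transfection, and no group had a second array. Within-line differences therefore have no replicate behind them and get no p-value.

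Cells make cholesterol from acetyl-CoA through mevalonate, farnesyl diphosphate, squalene and lanosterol, and make fatty acids from acetyl-CoA through malonyl-CoA. Both routes are switched on by SREBPs, which are held in the endoplasmic reticulum by SCAP and the INSIG proteins while sterols are plentiful, and are cut free in the Golgi by proteases when sterols run short. SREBF2 encodes the form best known for sterol genes and SREBF1 the forms best known for fatty acid genes, and in tumour cells the pathway supplies membrane for growth.

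ZIC5 itself was read at 15.5 with ZIC5 siRNA and 21.4 with control siRNA in SK-MEL-28, and at 14.1 with ZIC5 siRNA and 16.8 with control siRNA in A375. These intensities are under the level minimum, so they give no check on the knockdown. Median intensities of the arrays lay between 38.4 and 39.4. The melanocyte factor SOX10 was at 895 or above on every array, while the melanosome protein MLANA was at 17273 and 18212 on the SK-MEL-28 arrays but at 17.0 and 13.9 on the A375 arrays. Of the markers of other cell types, 1 of 4 leukocyte genes (CD3E, at 54.0 to 59.8), 2 of 4 epithelial, 3 of 4 fibroblast, 2 of 3 endothelial and 4 of 4 keratinocyte genes passed the level minimum. PTPRC stayed at 7.7 or below and EPCAM at 13.8 or below, while the keratin KRT18 had 433 with ZIC5 siRNA and 420 with control siRNA in SK-MEL-28, and 4213 and 4176 in A375. The matrix gene LUM, on the fibroblast list, was lower with ZIC5 siRNA, at 498 against 875 in SK-MEL-28 and 14.9 against 162 in A375, and its part in the results was not tested.

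The promoters of 5 members are shown first, as examples of the patterns described below. SREBF2 and MSMO1 were lower with ZIC5 siRNA in both lines, and SCD was lower mainly in A375. INSIG1 went opposite ways in the lines, and GPAM was higher. ACAT2 and FASN also had large differences but had no promoter window in the RefSeq table. Each sequence runs from 250 bases before to 50 bases after the RefSeq start of the gene on build GRCh38.p14, on the strand of the gene. The windows are chr22:41832855-41833154 (plus strand), chr4:165327419-165327718 (plus), chr10:100346983-100347282 (plus), chr7:155297628-155297927 (plus) and chr10:112183716-112184015 (minus). Capitals mark matches, on either strand, to TCACNCCAC (a core of the sterol regulatory element), CACGTG (the E-box), CCAAT (bound by NF-Y) and GGGCGG (bound by Sp1). In SREBF2 and in INSIG1, 1 GGGCGG match overlaps another.
SREBF2: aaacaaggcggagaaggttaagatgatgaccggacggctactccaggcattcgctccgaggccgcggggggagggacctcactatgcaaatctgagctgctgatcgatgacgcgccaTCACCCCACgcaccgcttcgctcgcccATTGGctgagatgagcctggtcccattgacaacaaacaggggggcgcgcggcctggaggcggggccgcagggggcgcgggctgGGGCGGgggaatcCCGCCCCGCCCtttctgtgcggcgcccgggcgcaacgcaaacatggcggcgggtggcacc
MSMO1: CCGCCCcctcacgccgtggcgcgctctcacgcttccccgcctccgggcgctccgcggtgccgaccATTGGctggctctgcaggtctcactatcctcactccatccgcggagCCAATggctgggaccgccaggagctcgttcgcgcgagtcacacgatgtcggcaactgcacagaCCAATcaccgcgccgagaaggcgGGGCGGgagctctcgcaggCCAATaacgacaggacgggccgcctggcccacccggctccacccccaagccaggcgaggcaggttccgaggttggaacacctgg
SCD: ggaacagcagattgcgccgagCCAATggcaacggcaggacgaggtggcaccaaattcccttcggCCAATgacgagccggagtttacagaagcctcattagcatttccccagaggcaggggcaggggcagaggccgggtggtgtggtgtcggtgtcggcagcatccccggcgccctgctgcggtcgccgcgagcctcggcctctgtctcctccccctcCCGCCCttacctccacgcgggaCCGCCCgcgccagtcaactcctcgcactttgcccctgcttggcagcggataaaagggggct
INSIG1: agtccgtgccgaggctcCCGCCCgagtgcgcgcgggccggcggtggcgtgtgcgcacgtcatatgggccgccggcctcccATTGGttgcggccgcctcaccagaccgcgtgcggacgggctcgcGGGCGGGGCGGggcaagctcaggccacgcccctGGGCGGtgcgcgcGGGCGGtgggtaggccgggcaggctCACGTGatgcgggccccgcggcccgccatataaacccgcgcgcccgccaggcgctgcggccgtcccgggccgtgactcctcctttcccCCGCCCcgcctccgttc
GPAM: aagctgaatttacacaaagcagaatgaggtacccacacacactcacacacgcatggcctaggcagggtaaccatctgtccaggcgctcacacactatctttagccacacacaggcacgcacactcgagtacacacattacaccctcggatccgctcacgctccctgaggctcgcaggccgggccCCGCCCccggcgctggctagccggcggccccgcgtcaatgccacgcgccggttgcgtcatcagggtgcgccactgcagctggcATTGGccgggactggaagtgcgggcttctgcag

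Of the 31 listed genes, 27 had at least 1 such window, 38 windows in all. CCAAT was found in 24 of the 38 windows, 63.2%, against 34.6% of all 35116 windows in the RefSeq table. GGGCGG was found in 34 of 38 windows, 89.5%, against 45.0% of all windows. CACGTG was found in 5 windows, 13.2% against 7.26%. TCACNCCAC was found in 1 window, that of SREBF2, 2.63% against 1.13%, with its first base 133 bases before the start. MSMO1 held 4 CCAAT matches and no TCACNCCAC, while GPAM held 1 CCAAT match. These are matches of letters, not binding sites, and the absence of a match concerns these letters in this window only. Some members have overlapping windows that count a site more than once. Counted by gene, GGGCGG was in 96.3% of members with a window against 48.3% of all genes, and CCAAT in 74.1% against 39.7%. The comparison covered all genes in the RefSeq table, not only those analysed here, and was not tested.

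With ZIC5 siRNA most members had lower intensities than with control siRNA in A375, while in SK-MEL-28 they stood close to the control. Differences below are log2 intensity with ZIC5 siRNA minus control siRNA within a line, so -1 is a 2-fold lower intensity. The median over the 29 members was -0.02 in SK-MEL-28 and -0.61 in A375, against 0.00 and -0.01 over all genes analysed. In SK-MEL-28, 15 of 29 members were below 0, where 49.6% of all genes were. In A375, 25 of 29 members were below 0, where 51.2% of all genes were.

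By size, 0 members were at least 2-fold lower in SK-MEL-28, where 2.12% of genes were, and only GPAM was at least 2-fold higher, as were 0.776% of genes. In A375, 6 members were at least 2-fold lower, where 5.05% of genes were: SCD, ACAT2, MSMO1, FASN, SREBF2 and ELOVL6. No member was 2-fold higher in A375, where 3.89% of genes were. A smaller step of 0.5, chosen after the values were seen, was passed downward by 0 members in SK-MEL-28 (8.37% of genes) and by 17 in A375 (15.8% of genes). The spread of the differences over all genes was itself larger in A375, the SD being 0.391 in SK-MEL-28 against 0.602 in A375.

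**Figure D1:**
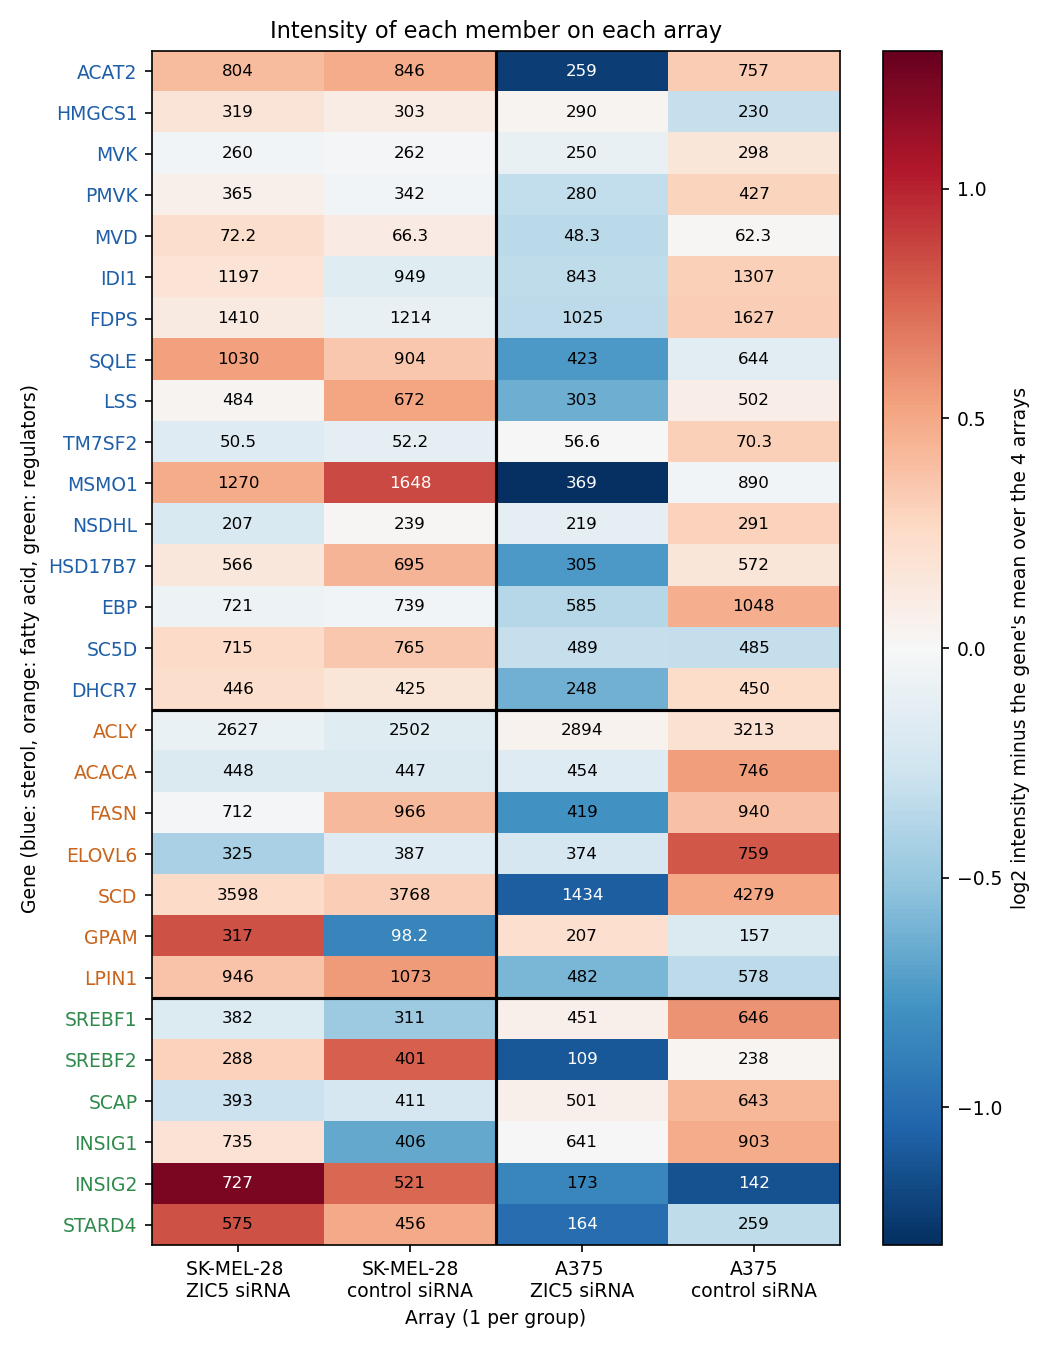
Intensity of the 29 measured members (rows) on each of the 4 arrays (columns), printed in each cell and coloured by log2 intensity minus the mean of the gene over the 4 arrays. The A375 ZIC5 siRNA column is blue for most sterol genes, with ACAT2 at 259 and MSMO1 at 369, while INSIG2 is red on both SK-MEL-28 arrays at 727 and 521.

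The early part of the sterol route, from acetyl-CoA to farnesyl diphosphate, had 7 measured members with a median difference of 0.09 for SK-MEL-28 and -0.61 for A375. ACAT2, the cytosolic thiolase that joins 2 acetyl-CoA units, had intensities of 804 with ZIC5 siRNA and 846 with control siRNA in SK-MEL-28, a difference of -0.07. In A375 it had 259 with ZIC5 siRNA and 757 with control siRNA, 2.92-fold lower. The A375 ZIC5 siRNA array stood apart for this gene and the other 3 lay close together. IDI1, which interconverts the isoprenoid building blocks, had 1197 with ZIC5 siRNA and 949 with control siRNA in SK-MEL-28, against 843 and 1307 in A375. FDPS, which makes farnesyl diphosphate, had 1410 with ZIC5 siRNA and 1214 with control siRNA in SK-MEL-28, against 1025 and 1627 in A375. Both were higher with ZIC5 siRNA in SK-MEL-28, by 0.33 and 0.22, and lower in A375, by differences of -0.63 and -0.67. PMVK and MVD, a kinase and a decarboxylase of mevalonate, had the same pattern, with 0.09 and 0.12 in SK-MEL-28 and -0.61 and -0.37 in A375. The mevalonate kinase MVK differed by -0.02 in SK-MEL-28 and -0.26 in A375. HMGCS1, the HMG-CoA synthase, was the exception in A375: it had 319 with ZIC5 siRNA and 303 with control siRNA in SK-MEL-28, and 290 with ZIC5 siRNA and 230 with control siRNA in A375, so it was higher in both lines, by 0.07 and 0.33. Its second probe set had the same sign in both lines, at 0.22 and 0.54.

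The steps from squalene to cholesterol had 9 measured members, with a median difference of -0.10 for SK-MEL-28 and -0.73 for A375. MSMO1 is an oxidase that acts in the removal of methyl groups from the sterol ring. It had 1270 with ZIC5 siRNA and 1648 with control siRNA in SK-MEL-28, a difference of -0.38. In A375 MSMO1 had 369 with ZIC5 siRNA and 890 with control siRNA, 2.41-fold lower. HSD17B7, a ketosteroid reductase of the same set of steps, had 566 and 695 in SK-MEL-28 with ZIC5 and control siRNA, and 305 and 572 in A375, differences of -0.30 and -0.91. Its only probe set is of a type that can also match related sequences, so its values are less certain. LSS, which closes the sterol ring, had 484 with ZIC5 siRNA and 672 with control siRNA in SK-MEL-28, and 303 with ZIC5 siRNA and 502 with control siRNA in A375. It was thus lower in both lines, by differences of -0.47 and -0.73, and was the member with the lowest SK-MEL-28 value after SREBF2.

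Of the other members from squalene on, DHCR7 and EBP were lower with ZIC5 siRNA in A375 but near control in SK-MEL-28. DHCR7, the reductase that forms cholesterol, had 446 with ZIC5 siRNA and 425 with control siRNA in SK-MEL-28, but 248 with ZIC5 siRNA and 450 with control siRNA in A375, 1.81-fold lower. EBP, a sterol isomerase, had 721 and 739 with ZIC5 and control siRNA in SK-MEL-28, and 585 and 1048 in A375, 1.79-fold lower. Both had nearly equal ZIC5 and control values in SK-MEL-28, with differences of 0.07 and -0.03. SQLE, the squalene epoxidase, had 1030 with ZIC5 siRNA and 904 with control siRNA in SK-MEL-28, and 423 with ZIC5 siRNA and 644 with control siRNA in A375, so both SK-MEL-28 arrays were above both A375 arrays. Its differences were 0.19 and -0.60. NSDHL, which removes a carboxyl group during demethylation, differed by -0.20 in SK-MEL-28 and -0.41 in A375, and the reductase TM7SF2 by -0.05 and -0.31. SC5D, a sterol desaturase, was the member with the smallest A375 difference, with 715 and 765 in SK-MEL-28 and 489 and 485 in A375 with ZIC5 and control siRNA.

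The fatty acid and glycerolipid branch had a median difference of -0.07 for SK-MEL-28 and -0.72 for A375 over 7 members, beside -0.02 and -0.62 over the 16 of the sterol branch. The medians of the branches thus lay 0.04 apart in SK-MEL-28 and 0.09 apart in A375, and this gap was not tested. It depended on the genes and probe sets read: without GPAM, left out after its values were seen, the fatty acid median was -0.12 in SK-MEL-28 and -0.87 in A375, and with the probe set of highest SD for each gene the A375 medians were -0.89 for the fatty acid branch and -0.64 for the sterol branch. In A375, 3 of 7 fatty acid members and 2 of 16 sterol members were at least 2-fold lower, where 5.05% of all genes were. With the mean of the probe sets FASN was no longer among them, and this contrast of the branches was not tested.

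SCD, the desaturase that makes oleate, had 3598 with ZIC5 siRNA and 3768 with control siRNA in SK-MEL-28, and 1434 with ZIC5 siRNA and 4279 with control siRNA in A375. The A375 ZIC5 siRNA array alone was low, a 2.98-fold difference, while SK-MEL-28 differed by -0.07. FASN, the fatty acid synthase, had 712 with ZIC5 siRNA and 966 with control siRNA in SK-MEL-28, and 419 with ZIC5 siRNA and 940 with control siRNA in A375. The control arrays were nearly equal and FASN was lower with ZIC5 siRNA in both lines, 1.36-fold and 2.24-fold. ELOVL6, which lengthens palmitate, had 325 and 387 with ZIC5 and control siRNA in SK-MEL-28, and 374 and 759 in A375, so its A375 control array stood above the other 3. ACACA, the carboxylase that makes malonyl-CoA, had 448 and 447 in SK-MEL-28 and 454 and 746 in A375, again with the A375 control array alone high. ACLY, which supplies acetyl-CoA from citrate, differed by 0.07 in SK-MEL-28 and -0.15 in A375, and the phosphatidate phosphatase LPIN1 by -0.18 and -0.26.

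GPAM, the acyltransferase that starts glycerolipid synthesis in mitochondria, had a positive difference in both lines, unlike the rest of its branch. Its intensity was 317 with ZIC5 siRNA and 98.2 with control siRNA in SK-MEL-28, 3.23-fold higher. In A375 it was 207 with ZIC5 siRNA and 157 with control siRNA, 1.32-fold higher. The SK-MEL-28 arrays were thus the highest and the lowest of the 4. Its second probe set gave 1.53 in SK-MEL-28 and 0.89 in A375.

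**Figure D2:**
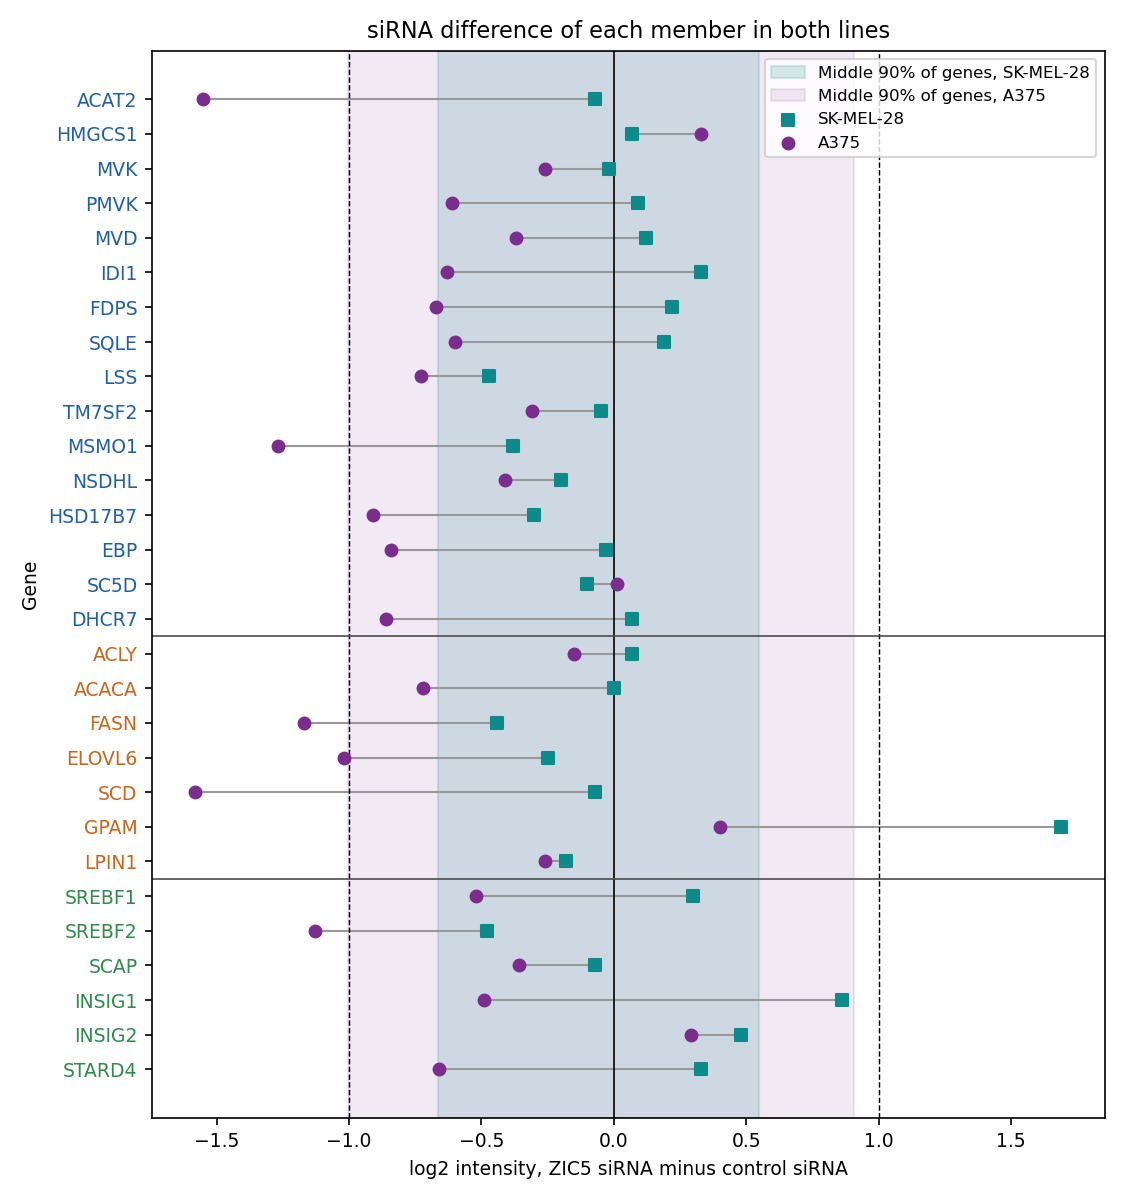
log2 intensity with ZIC5 siRNA minus control siRNA (horizontal axis) for each member (rows; blue sterol, orange fatty acid, green regulators), with squares for SK-MEL-28 and circles for A375. Shaded bands hold the middle 90% of all genes and dashed lines mark 2-fold. Most circles lie left of 0, with SCD at -1.58 and ACAT2 at -1.55, while GPAM is the only square beyond 2-fold, at 1.69.

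Among the regulators, SREBF2 was lower with ZIC5 siRNA in both lines on its brightest probe set, while the brightest of SREBF1 had opposite signs in the lines. SREBF2 had 288 with ZIC5 siRNA and 401 with control siRNA in SK-MEL-28, and 109 with ZIC5 siRNA and 238 with control siRNA in A375, 1.39-fold and 2.19-fold lower. Its other probe sets gave smaller values: the second gave -0.05 in SK-MEL-28 and -0.71 in A375, and the third gave 0.13 and 0.01. With the mean of its probe sets the A375 difference was -0.61, under the 2-fold rule. SREBF1 had 382 with ZIC5 siRNA and 311 with control siRNA in SK-MEL-28, but 451 with ZIC5 siRNA and 646 with control siRNA in A375, differences of 0.30 and -0.52. Its second, dimmer probe set gave -0.12 in SK-MEL-28 and -0.07 in A375, so the SK-MEL-28 sign depended on the probe set. SCAP, which escorts SREBPs to the Golgi, differed by -0.07 in SK-MEL-28 and -0.36 in A375.

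INSIG1, a retention protein whose own gene is switched on by SREBPs, had 735 with ZIC5 siRNA and 406 with control siRNA in SK-MEL-28, 1.81-fold higher. In A375 INSIG1 had 641 with ZIC5 siRNA and 903 with control siRNA, 1.41-fold lower. Its 3 probe sets had these signs in both lines, from 0.82 to 1.12 in SK-MEL-28 and from -0.68 to -0.49 in A375. INSIG2, the related retention protein, had 727 with ZIC5 siRNA and 521 with control siRNA in SK-MEL-28, and 173 with ZIC5 siRNA and 142 with control siRNA in A375, higher in both lines by 0.48 and 0.29. STARD4, which carries sterol between membranes, had 575 and 456 with ZIC5 and control siRNA in SK-MEL-28 and 164 and 259 in A375, so it was higher with ZIC5 siRNA in the first line and lower in the second, by 0.33 and by a difference of -0.66.

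The siRNA effect over both lines was tested with limma on all 13794 genes, with the line as a term, so the lines are the only replication and 1 residual degree of freedom is left per gene. At a Benjamini-Hochberg adjusted p under 0.05, limma called 0 of 29 members and 0% of all genes, the lowest limma adjusted p among members being 0.355. Without adjustment, 4 of 29 members had a limma p under 0.05, all lower, where 13.2% of all genes passed in either direction and 7.31% on the lower side. These were LSS with a mean difference of -0.60 (SE 0.18), SREBF2 with -0.80 (SE 0.24), FASN with -0.80 (SE 0.24) and MSMO1 with -0.82 (SE 0.27), each lower in 2 of 2 lines. With a level minimum of log2 7, 7 of the 27 members left passed unadjusted, where 1471 of 8605 genes did in either direction. With loess on level 7 of 29 members passed. More of all genes then passed than the 1824 of 13794 without it, and no alternative gave more than 2095. Some mean differences of this size or greater had larger errors, as the lines lay farther apart: GPAM had 1.05 (SE 0.37), SCD -0.82 (SE 0.40) and ACAT2 -0.81 (SE 0.41), with limma adjusted p of 0.378, 0.444 and 0.453. The error in these p-values starts from the disagreement of a gene's siRNA difference between the lines, with 1 degree of freedom. limma then draws it towards the spread of all genes at a like intensity, which carries 2.85 degrees of freedom. Spread between repeat cultures or arrays of a line was not measured.

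The lines were then set against each other. The siRNA difference was higher in SK-MEL-28 than in A375 for 27 of 29 members, where it was so for 50.3% of all genes, and the median gap was 0.72, against 0.00 over all genes. The 2 exceptions were HMGCS1 and SC5D. In 11 members the sign was positive in SK-MEL-28 and negative in A375, where 18.6% of genes had that pattern, and 14 were lower in both lines, where 32.5% of genes were. The gap was widest for SCD at 1.51, ACAT2 at 1.47, INSIG1 at 1.35 and GPAM at 1.29. With 1 array per group an interaction could not be fitted, so the gap has no test. Across the 29 members, which share 4 arrays and are not independent, the siRNA differences correlated between lines at 0.536 (Pearson) and 0.50 (Spearman), beside a Pearson value of 0.441 for all genes.

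**Figure D3:**
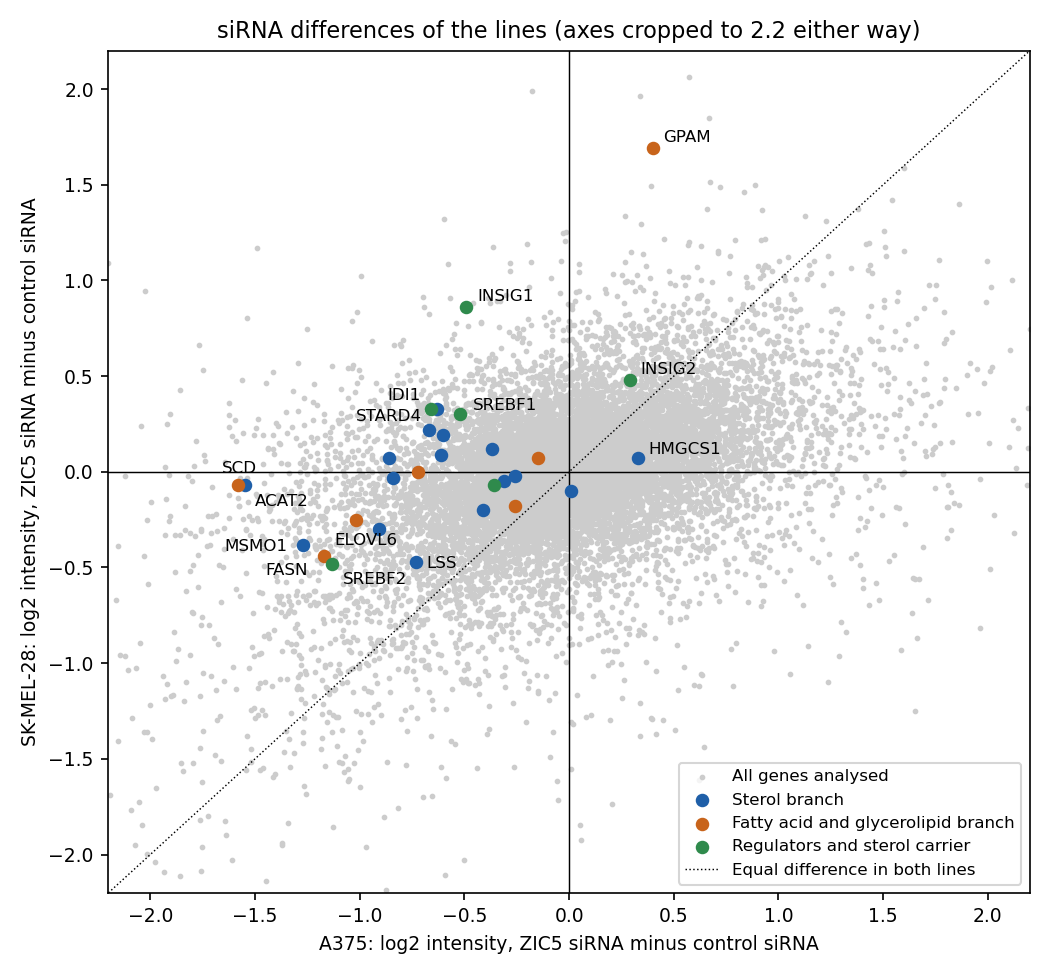
siRNA difference (log2, ZIC5 siRNA minus control siRNA) in SK-MEL-28 (vertical axis) against A375 (horizontal axis) for the members, coloured by branch, and for all 13794 genes in grey. On the dotted line both differences are equal. All members but HMGCS1 and SC5D lie above it, INSIG1 sits at 0.86 and -0.49, and SCD and ACAT2 sit near 0 in SK-MEL-28.

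The line difference, SK-MEL-28 minus A375, was read under each siRNA. With ZIC5 siRNA the median over members was 0.55, and with control siRNA it was -0.18, against -0.01 and -0.03 over all genes. With ZIC5 siRNA 22 of 29 members were higher in SK-MEL-28 than in A375, where 49.3% of genes were. With control siRNA 13 of 29 were, where 47.8% of genes were. At least 2-fold higher in SK-MEL-28 were 7 members with ZIC5 siRNA (11.8% of genes) and 1, INSIG2, with control siRNA (11.2% of genes). At least 2-fold lower in SK-MEL-28 were 0 members with ZIC5 siRNA (12.0% of genes) and 2, INSIG1 and SREBF1, with control siRNA (11.0% of genes). The comparison with control siRNA and the siRNA differences share the control arrays, so these counts are not separate evidence. The control siRNA median changed sign, to 0.04, when each gene was read from its probe set with the highest SD.

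Over both siRNAs, limma called 5 of 29 members different between lines at an adjusted p under 0.05, where it called 27.7% of all genes. All 5 were higher in SK-MEL-28, where 13.4% of genes were called in that direction. INSIG2 was 4.19-fold higher in SK-MEL-28 with ZIC5 siRNA and 3.66-fold with control siRNA, a mean difference of 1.97 (SE 0.18, limma adjusted p = 0.00865). LPIN1 had a mean of 0.93 (SE 0.16, limma adjusted p = 0.0266), MSMO1 1.34 (SE 0.27, limma adjusted p = 0.0383) and SREBF2 1.08 (SE 0.24, limma adjusted p = 0.0456). STARD4 had 1.31 (SE 0.31) and a limma adjusted p that rounds to 0.05. With no level filter only INSIG2 and LPIN1 passed, at limma adjusted p of 0.0128 and 0.0373, while MSMO1, SREBF2 and STARD4 had 0.0550, 0.0631 and 0.0702. STARD4 had 0.0511 when eBayes was run without a trend. So INSIG2 and SREBF2 were higher in SK-MEL-28, while INSIG1 and SREBF1, their relatives, had mean line differences of -0.48 and -0.65 that did not pass.

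**Figure D4:**
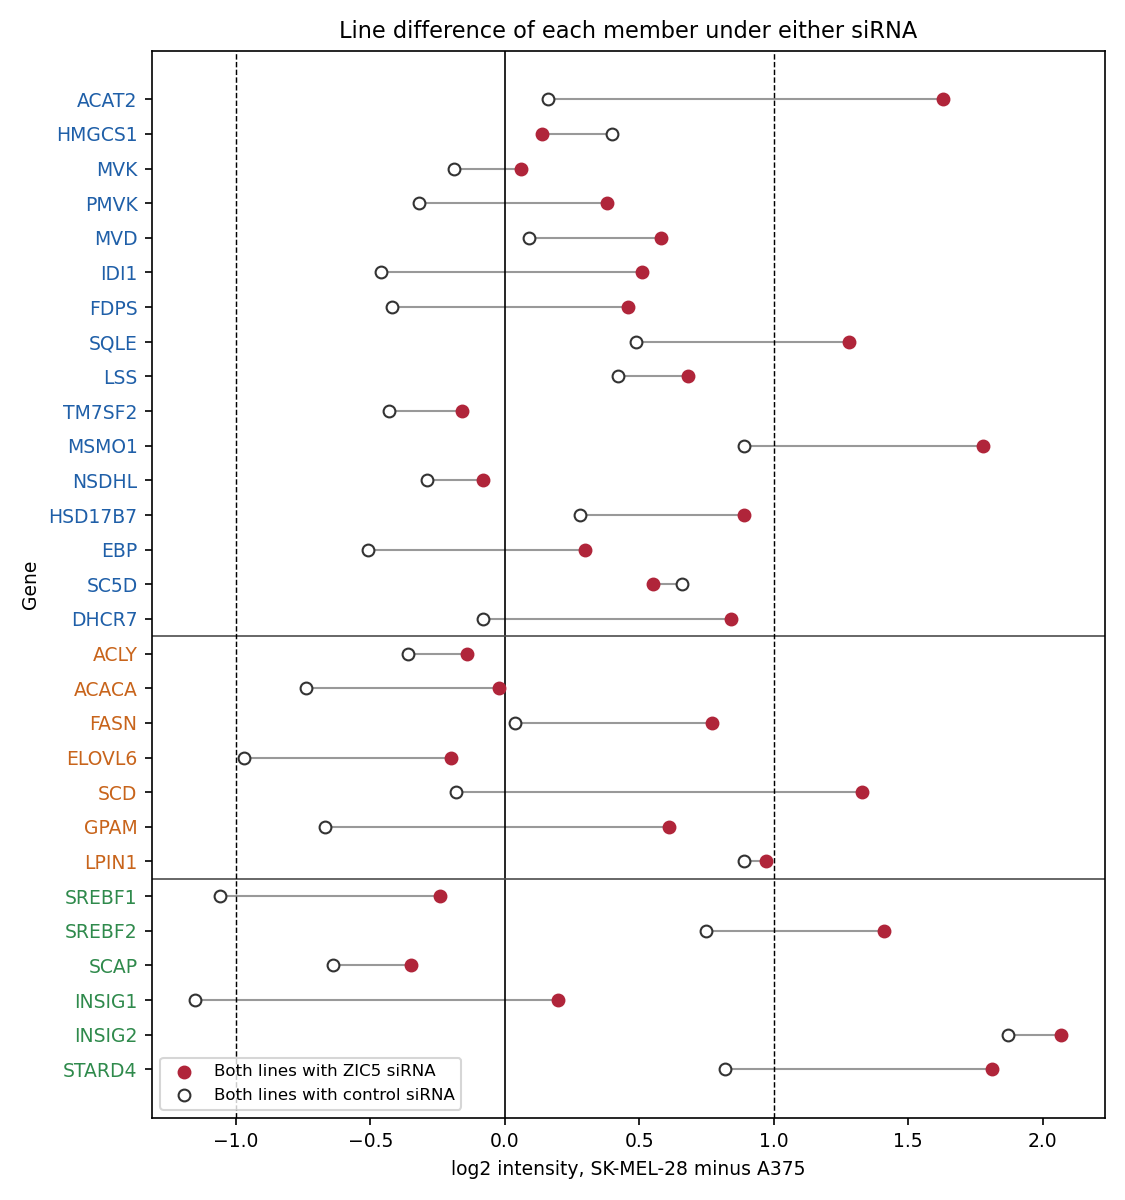
log2 intensity in SK-MEL-28 minus A375 (horizontal axis) for each member (rows), with filled points for arrays with ZIC5 siRNA and open points for arrays with control siRNA. Dashed lines mark 2-fold. The filled points lie to the right of the open ones for all members but HMGCS1 and SC5D, and both INSIG2 points lie beyond 2-fold, at 2.07 and 1.87.

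Probe sets of a gene allowed a check within the arrays. The 29 members had 60 probe sets at the level minimum, of which 26 were below 0 in SK-MEL-28 and 51 in A375. Of the 18 members with several, 6 had 1 sign in all of them in SK-MEL-28 and 15 did in A375. Read by gene, 49.6% of all genes were below 0 in SK-MEL-28 and 51.2% in A375. Neither count was made over the probe sets of all genes, so how often those share a sign is not known here. SCD had 4 probe sets from -1.58 to -0.53 in A375 but from -0.07 to 0.29 in SK-MEL-28, where the sign depended on the probe set. FASN had a second, dimmer probe set, of the type that can match related sequences, with 0.02 in SK-MEL-28 and -0.04 in A375, and with the mean of both its A375 difference was -0.61. ELOVL6 had 3 probe sets from -1.91 to -1.02 in A375, and EBP had 4 from -0.84 to 0.00. The 2 brightest IDI1 probe sets, both of the type that can match related sequences, gave 0.33 and 0.26 in SK-MEL-28 and -0.63 and -0.48 in A375.

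**Figure D5:**
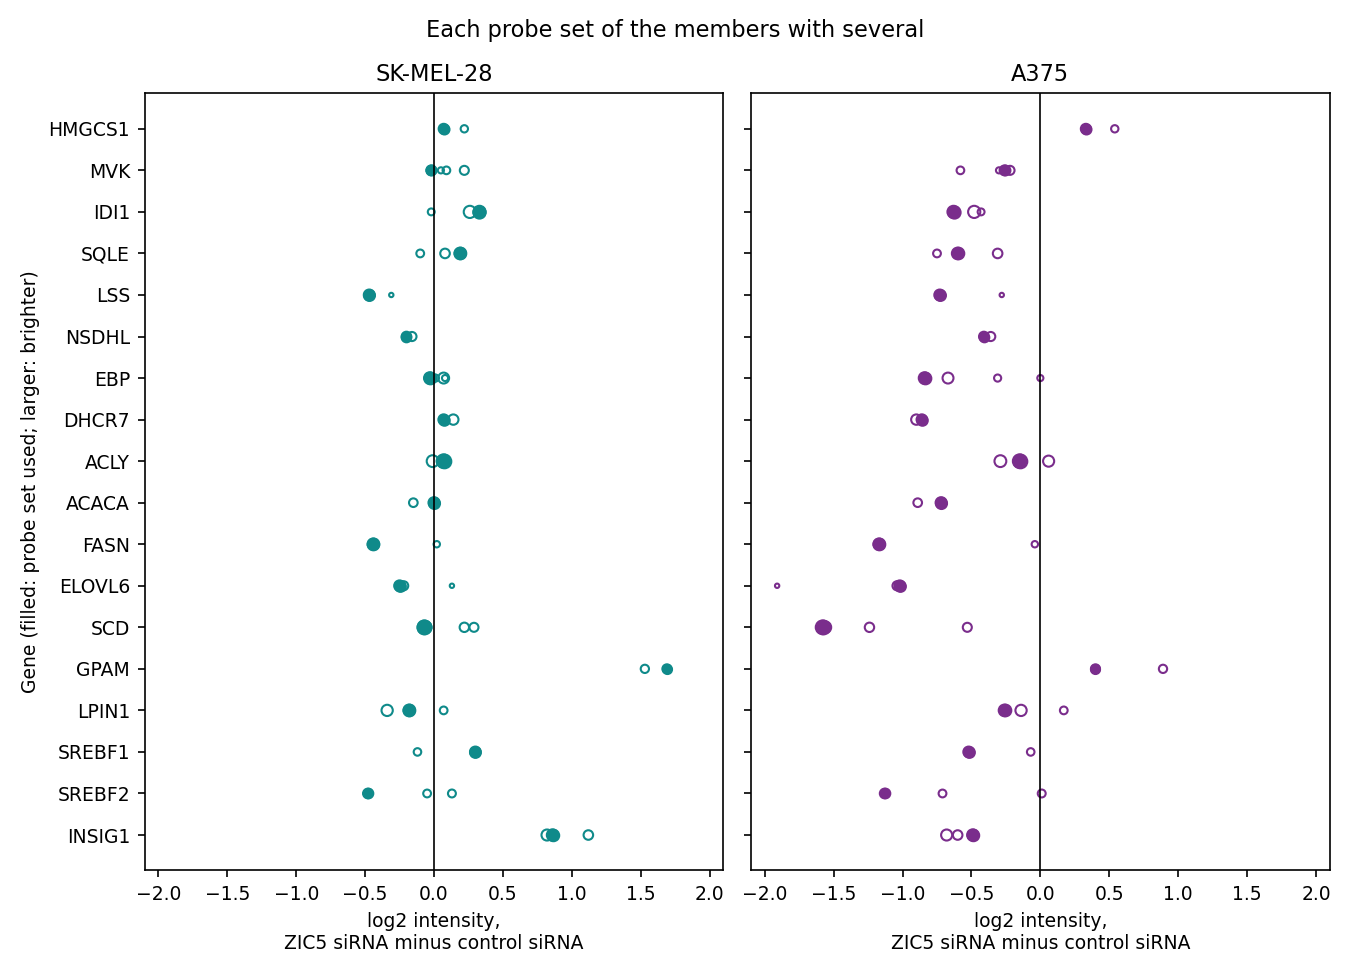
siRNA difference (log2, ZIC5 siRNA minus control siRNA) of every probe set at the level minimum for the 18 members with several, SK-MEL-28 left and A375 right; filled points are the probe sets used and larger points are brighter. INSIG1 has all 3 points right of 0 in SK-MEL-28 and left of 0 in A375, while SREBF2 spreads from -0.48 to 0.13 and from -1.13 to 0.01.

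Genes that act on the SREBP precursors were read next, from a list of 15 of which 13 were measured. This list and those that follow were chosen with earlier results of these data known. Their counts beside all genes are therefore description, not a test. Their median difference was -0.35 in SK-MEL-28 and -0.31 in A375, and 9 of 13 were lower in both lines, where 32.5% of all genes were. MBTPS2, the membrane protease that makes the second cut releasing SREBPs, had 484 with ZIC5 siRNA and 1485 with control siRNA in SK-MEL-28, and 525 with ZIC5 siRNA and 1093 with control siRNA in A375. Its ZIC5 siRNA arrays lay below both control arrays, with differences of -1.62 and -1.06 (mean -1.34, SE 0.21, limma adjusted p = 0.268), and both its probe sets had that sign. ERLIN2, an endoplasmic reticulum protein that limits SREBP activation, had 145 and 398 with ZIC5 and control siRNA in SK-MEL-28 and 198 and 398 in A375, differences of -1.45 and -1.01 (limma adjusted p = 0.270). PAQR3, a Golgi anchor for SCAP, differed by -1.37 in SK-MEL-28 and -0.39 in A375. FBXW7, the ubiquitin ligase subunit that marks nuclear SREBPs for breakdown, was higher by 0.39 and 0.84. In this list 0 genes passed after adjustment, and 4 lower and 1 higher of 13 had an unadjusted limma p under 0.05, where 7.31% of all genes were lower and 5.91% higher by that rule.

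In 5 further lists, again with 0 genes called by limma after adjustment, medians lay nearer to 0. The 9 measured genes among other sterol and isoprenoid enzymes had medians of 0.08 for SK-MEL-28 and -0.17 for A375, with 2 lower and 1 higher at an unadjusted limma p under 0.05. LBR, a nuclear envelope protein with sterol reductase activity, had 542 and 567 with ZIC5 and control siRNA in SK-MEL-28 and 749 and 1650 in A375, differences of -0.06 and -1.14, and the dolichol synthesis gene DHDDS differed by 0.55 and 0.58, a sign held by 1 of its 2 probe sets in A375. The 18 genes of fatty acid supply, elongation and desaturation had medians of -0.07 and -0.15, with 3 lower and 2 higher unadjusted. Of their 16 genes at the level minimum in each line, 1 was lower and 2 higher, where 897 and 767 of 12939 genes were. That count was added after the values were seen. In this list ACSL1, which activates fatty acids, had 2705 with ZIC5 siRNA and 1620 with control siRNA in SK-MEL-28. In A375 it had 842 with ZIC5 siRNA and 442 with control siRNA, so it was higher by 0.74 and 0.93. The elongases ELOVL7 and ELOVL2, the calls that this count leaves out, differed by -0.52 and -0.36 in SK-MEL-28 and by -1.26 and -1.24 in A375, but all A375 intensities of the pair were at 26.9 or below, under 32. Glycerolipid assembly, with 13 genes, had medians of 0.02 and 0.04, with AGPAT1 lowest at -0.43 and -0.47 and PCYT1A highest at 0.29 and 0.31, and 1 lower and 0 higher unadjusted.

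Genes of sterol uptake, storage and efflux, 14 measured, had a median difference of 0.10 in SK-MEL-28 and of 0.09 in A375. Of these, 1 was lower and 1 higher unadjusted. Of the 13 at the level minimum in each line, 1 was lower and 0 higher, where 897 and 767 of 12939 genes were. VLDLR, a lipoprotein receptor, had 198 with ZIC5 siRNA and 186 with control siRNA in SK-MEL-28, but 459 with ZIC5 siRNA and 82.4 with control siRNA in A375, differences of 0.09 and 2.48. ABCA1, the cholesterol efflux pump and the call so left out, had 11.8 and 9.4 with ZIC5 and control siRNA in SK-MEL-28, values under 32, and 220 and 84.1 in A375, a difference of 1.39. TMEM97, a sterol-regulated membrane protein, was lower, by differences of -0.36 and -0.84. Fatty acid oxidation, with 8 genes, had medians of 0.14 and 0.12, with 0 genes in either direction unadjusted, CPT1A highest at 0.22 and 0.44 and CPT2 lowest at -0.19 and -0.46.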

How the data were processed

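Total RNA from SK-MEL-28 and A375 cells was labelled as biotinylated cRNA and hybridised to 4 arrays, 1 per group, per the labels' protocols. Each array's deposited file column holds 1 intensity for every probe set. The submitters' processing notes name RMA and Affymetrix Expression Console as the authors' tools; versions are not given in the sources used here. RMA fits each probe set over all arrays and equalises their distributions, so a shift of all genes together cannot be seen. The intensity values are on a linear scale, and log2 was taken here. The number of arrays limits the precision.

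Among 54613 probe sets, those with 1 gene name numbered 41091, those with several (left out) 1801 and those with none 11721, by the platform annotation of August 2016. By entrez ID 41037 matched the RefSeq table of GRCh38.p14, and 0 symbols changed. Genes at a mean log2 of at least 5 were analysed. A single additive model of line and siRNA was fitted with limma 3.58.1 in R 4.3.3 (eBayes with trend, Benjamini-Hochberg at 0.05). On simulated arrays with 200 of 13794 genes changed by 1 log2 unit, it called 0% of them for the siRNA effect after adjustment, and 76% of genes changed by 2 units. Members, branches, the 6 related lists, the motifs and the alternatives were chosen with earlier results of these data known. The rule for named genes took every member, and of the related lists those at least 2-fold changed in a line and the highest and lowest by mean. Promoters came from the RefSeq table of GRCh38.p14. The alternatives were no level filter, a minimum of 7, a floor of 32, 3 other scalings, 2 other choices of probe set, and eBayes without a trend; counts of genes at the level minimum in each line were added after the data were seen.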

Additional observations from a re-analysis of the deposited data

Results flagged for a closer look

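For 6 members the siRNA difference was positive in SK-MEL-28 and negative in A375. Each of these differences exceeded in size the typical SD among probe sets of a single gene in that line (median 0.150 in SK-MEL-28 and 0.247 in A375). By sign alone, 11 of 29 members and 18.6% of all genes had this pattern. The share of all genes that passed the size rule was not counted. The gap, SK-MEL-28 minus A375, was 1.35 for INSIG1, 0.99 for STARD4, 0.97 for IDI1, 0.88 for FDPS, 0.81 for SREBF1 and 0.79 for SQLE. Each line had 1 array per siRNA, so the difference between lines was not tested. With another choice of probe set the SK-MEL-28 value became -0.02 for IDI1 and -0.10 for SQLE. SREBF1 had -0.12 in SK-MEL-28 and -0.07 in A375 on its second probe set, and with the mean of both its SK-MEL-28 value was 0.09. INSIG1 kept its signs on all 3 probe sets, and STARD4 and FDPS had 1 probe set each.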

How the results depend on the processing

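The line term already joins the ZIC5 and control siRNA arrays of a line, so the siRNA test was paired by line. No further pairing was possible because each group had 1 array and the labels give no replicate numbers. Under the alternatives the median difference of the members stayed between -0.04 and 0.04 in SK-MEL-28 and between -0.66 and -0.51 in A375. The A375 medians of the branches stayed between -0.67 and -0.51 (sterol) and between -0.89 and -0.61 (fatty acid). Members at least 2-fold lower in A375 numbered 4 to 6; with the mean of the probe sets FASN and SREBF2 left the 2-fold group. Members at least 2-fold higher in SK-MEL-28 became 2 with the probe set of highest SD, which added INSIG1. Members called between lines became 2 with no level filter, when 19775 genes were tested. The count of all genes called then also fell, from 3816 of 13794 with the filter. It stayed at 3309 or above under every alternative, and the reason for the fall was not tested. SQLE passed between lines at an adjusted limma p of 0.0455 with a minimum of 7 and 0.0469 with arrays centred on their median, and SCD at 0.0457 with the mean of the probe sets and 0.0242 with the probe set of highest SD; the cause was not tested. The siRNA effect called 0 members and 0 genes by limma under every alternative. The share of 2-fold calls that were higher moved by less than 4 percentage points under other scalings. Values near 32 and below, as for ZIC5, carry little signal over background.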
